A study of Mus musculus with 19 samples.

Results

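The genes of eukaryotic translation initiation factors (eIFs) were followed through endoplasmic reticulum (ER) stress and recovery from it in C2C12, a mouse myoblast line. Their members are the protein-coding genes whose symbols start with Eif1 to Eif6, without the eIF2 kinases and the eIF4E-binding proteins, that had at least 10 counts in 2 or more of 19 libraries. Of 48 such symbols 46 met this minimum, out of 55401 gene identifiers in all, and the 46 were all among the 18039 genes tested. Eif2s3y, the Y-linked copy of an eIF2 subunit, had no count in any library, and Eif4e1b, an oocyte form of the cap-binding protein, had 1 count in 1 library. By the complex to which their products belong, the 46 comprise 5 genes of eIF1 and eIF1A, 3 of eIF2, 5 of eIF2B, 2 of eIF2A and eIF2D, 14 of eIF3, 4 of the eIF4E group, 5 of eIF4A and its cofactors, 3 of eIF4G, 3 of eIF5, eIF5B and eIF6, and 2 of eIF5A.

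Initiation begins when eIF2 carries the initiator tRNA to the small ribosomal subunit, which eIF1, eIF1A, eIF3 and eIF5 hold ready. The cap-binding complex of eIF4E, the scaffold eIF4G and the helicase eIF4A brings this subunit to an mRNA, and it scans to the start codon, where eIF5 triggers GTP hydrolysis on eIF2 and eIF5B joins the large subunit. In ER stress the kinase PERK phosphorylates eIF2 on its alpha subunit, which turns eIF2 into an inhibitor of its own exchange factor eIF2B, lowers general translation and favours translation of a few mRNAs such as that of the transcription factor ATF4.

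All cells were labelled wild type (WT) and grew in the same medium with fetal serum. They received the vehicle DMSO or 100 nM thapsigargin, which blocks the calcium pump of the ER, for 2, 6 or 12 h. A recovery group had 6 h of the drug and then 48 h in medium without it. Each group had 3 libraries, except vehicle and drug at 12 h with 2 each, and all RNA was selected by poly(T). No DMSO group was kept as long as the recovery cells, so the effects of drug removal and of longer culture cannot be told apart. It is not stated that the replicates of a group came from separate cultures, and p-values then cover only the scatter among these samples, part of which may be technical. All groups are 1 cell line, and in bulk RNA fewer cells of a kind and less RNA per cell cannot be told apart.

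The libraries held 17.31 to 40.96 M (mega) reads in genes, lowest at 12 h. Replicate 3 of vehicle at 2 h and replicate 1 of recovery had 15.797% and 14.886% of their gene reads in mitochondrial genes, against 1.411 to 3.068% in the other 17. For a measure of length, each gene was set against its own mean over all libraries, in log2 units. Protein-coding genes with long transcripts (4809 bases or more) were then compared by median with those with short ones (2175 or fewer). This relative measure, which is not a level of expression, was 0.47 to 1.25 in the libraries at 2 and 12 h. In vehicle at 6 h the same measure was -0.98, -0.71 and -1.47, under the drug at 6 h -0.01, -1.32 and -1.05, and in recovery -1.72, -0.15 and -0.91, so replicate 1 of the drug at 6 h stood apart from its group. The stress genes Atf4, Ddit3, Asns and Hspa5 were called higher under the drug at 2, 6 and 12 h. All 7 myoblast markers were present (945 to 9334 summed CPM, that is counts per M gene reads after scaling). The 5 macrophage markers summed to 2.41 to 11.2 CPM, with Adgre1 at 0. Under the drug at 6 h, 4 endothelial markers summed to 2.64 to 4.79 CPM against 0.514 to 0.610 in vehicle, 4 epithelial ones to 13.3 to 24.3 against 0.685 to 2.61 with Epcam at 0, and 4 adipocyte ones to 52.0 to 72.5 against 10.6 to 18.2 with Adipoq and Plin1 under 1. The part of these markers in the results at 6 h was not tested.

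After 6 h of thapsigargin 3 of the 46 genes rose by 1.97- to 2.12-fold: Eif1a, which encodes a form of the scanning factor eIF1A, Eif2s2, which encodes the beta subunit of eIF2, and Eif3c, which encodes a core subunit of eIF3. None of the 46 fell by edgeR's quasi-likelihood test with Benjamini-Hochberg adjustment over all genes. Of all genes tested 13% were called higher and 8.79% lower at this time. At an unadjusted p under 0.05, 6 members were higher and 2 lower (18.7% and 13.9% of all genes), and DESeq2 called 5 higher and 1 lower (16.4% and 10.1%). Without the 2 libraries of high mitochondrial share 8 were called higher and 2 lower. The added ones were Eif1, Eif2b3, Eif3j2, Eif4g3 and Eif5 above vehicle and Eif1ax and Eif4a1 below it. Here and below, shares of all genes called were counted for the main edgeR fit and for DESeq2 only. Whether a change in the count of members in another setting is particular to them was therefore not tested. Of the 46, 28 lay above 0 (50.7% of all genes). The 46 had a median log2 difference of 0.08, against 0.01 over all genes, and lay between -0.47 and 1.09. With offsets for transcript length and GC content in the fit the medians were -0.17 and -0.21, so the sign of the members' median was not stable. For 28 of the 46 (60.9%) the 95% interval lay within a 2-fold change in both directions, as it did for 25.5% of all genes, which were not matched for level. The libraries of drug and vehicle did not overlap for 7 members above and 3 below vehicle, where 21% and 16.4% of all genes were so placed. Leaving out replicate 1 of the drug gave the same 3 calls.

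**Figure D1:**
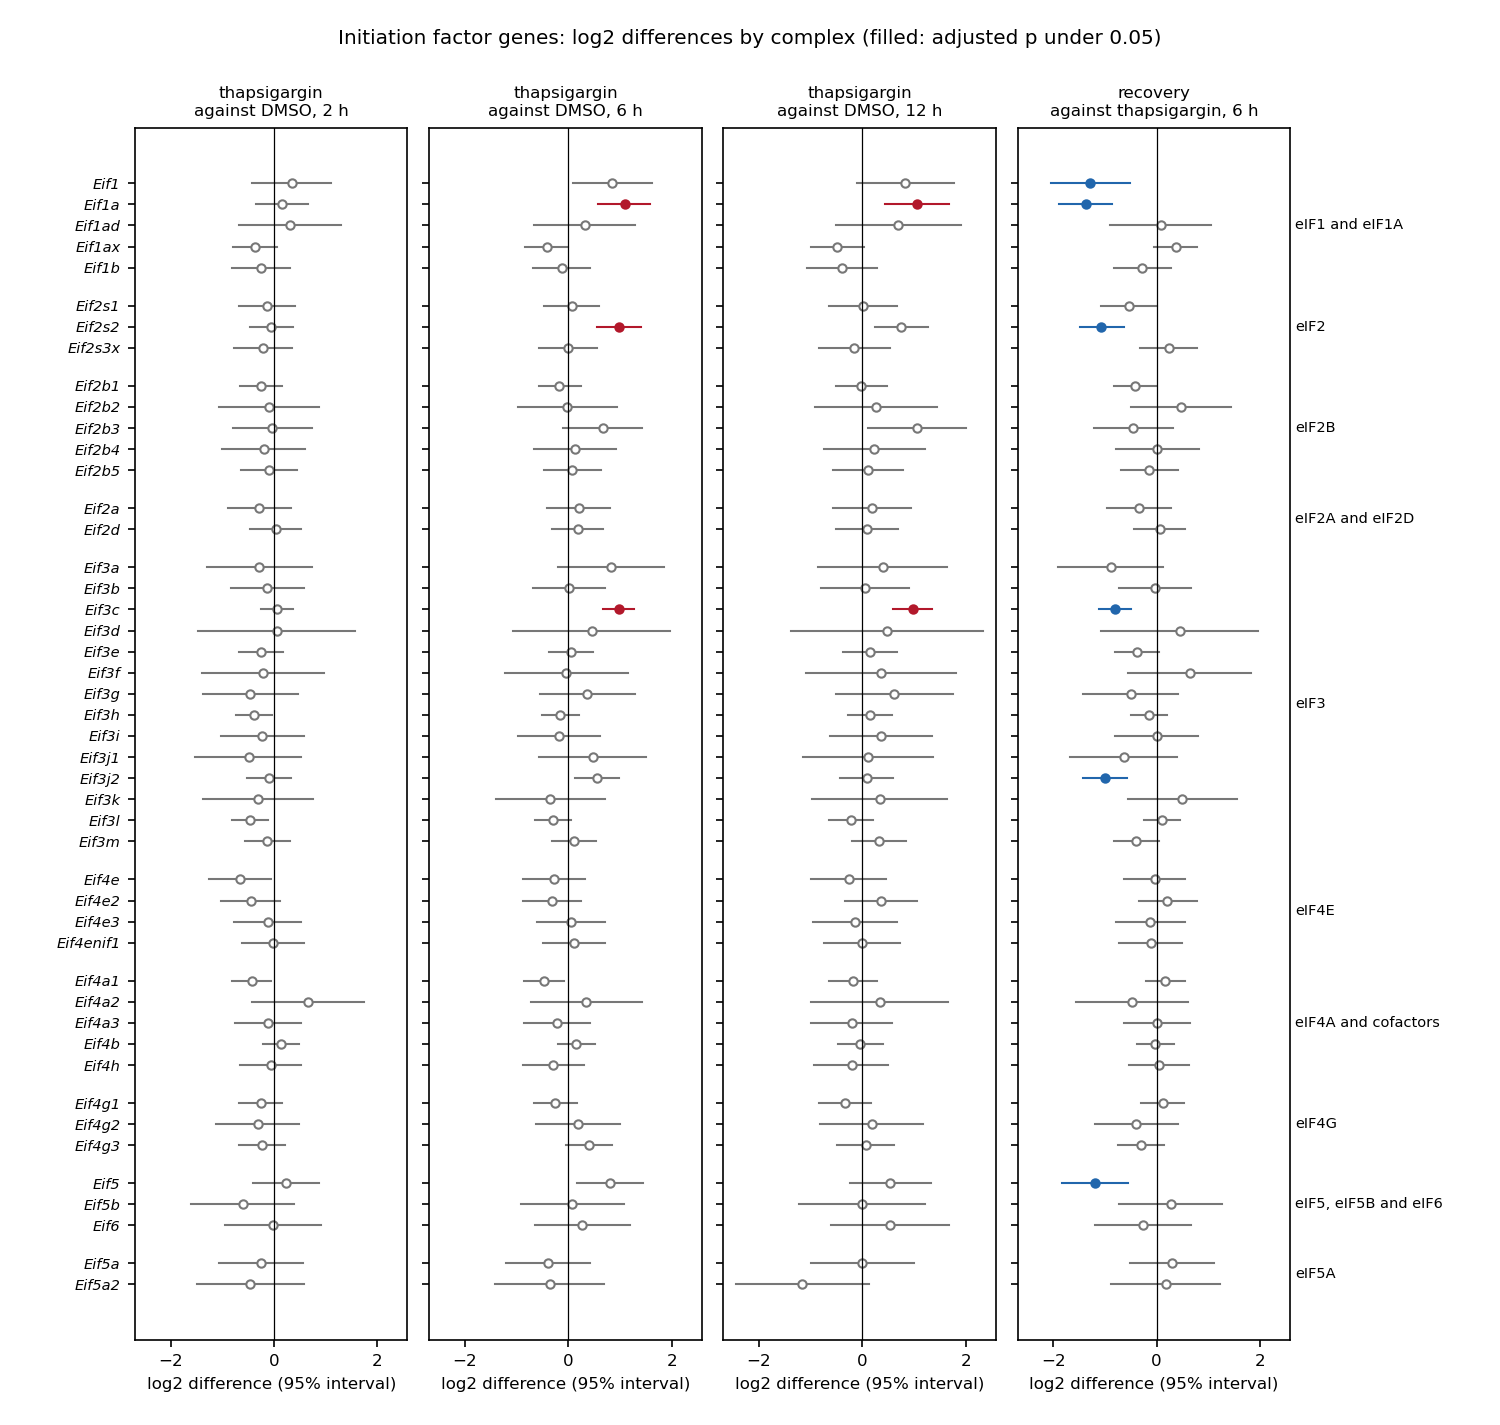
Log2 differences (horizontal axes) of the 46 genes, ordered by complex, for thapsigargin against vehicle at 2, 6 and 12 h and for recovery against thapsigargin at 6 h, with 95% intervals as lines. Filled points have an adjusted p under 0.05: none at 2 h, 3 at 6 h, 2 at 12 h (red, higher) and 6 in recovery (blue, lower).

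Promoter sequence is shown for 4 of the genes described next, which had high values under the drug and lower ones in recovery. Of these 4, Eif2s2 and Eif3c were called higher under the drug at 6 h, and Eif1 and Eif5 were not. Eif1a and Eif3j2 had high values under the drug and lower ones in recovery too and are not shown. The stretches are from RefSeq (GRCm38.p6), start 250 bases before the annotated start and end before any annotated transcript. Capitals mark TGACG, the left part of the cAMP response element, which reads CGTCA where it lies on the opposite strand, as in Eif1.
Eif2s2 (chr2:154892936-154893156, minus strand): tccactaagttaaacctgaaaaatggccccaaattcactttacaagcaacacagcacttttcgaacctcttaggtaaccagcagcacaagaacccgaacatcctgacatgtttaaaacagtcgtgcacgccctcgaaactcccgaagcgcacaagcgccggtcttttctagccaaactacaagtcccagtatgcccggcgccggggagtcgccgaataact
Eif3c (chr7:126566412-126566616, minus strand): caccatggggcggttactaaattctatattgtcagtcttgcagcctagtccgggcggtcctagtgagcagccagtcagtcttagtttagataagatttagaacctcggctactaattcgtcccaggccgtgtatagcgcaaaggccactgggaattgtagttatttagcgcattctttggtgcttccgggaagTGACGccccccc
Eif1 (chr11:100319699-100319884, plus strand): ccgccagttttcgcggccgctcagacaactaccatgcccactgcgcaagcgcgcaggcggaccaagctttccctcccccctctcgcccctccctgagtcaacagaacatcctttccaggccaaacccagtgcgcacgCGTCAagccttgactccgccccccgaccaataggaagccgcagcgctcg
Eif5 (chr12:111537851-111538015, plus strand): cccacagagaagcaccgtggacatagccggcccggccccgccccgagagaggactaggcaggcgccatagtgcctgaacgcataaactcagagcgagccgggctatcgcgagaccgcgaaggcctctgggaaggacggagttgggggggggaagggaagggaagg
RefSeq windows were matched for 37 of the 46 genes, and the 250 bases before each start were searched on both strands. TTNCATCA, the core of the element bound by ATF4 with its partners, was in 1 of the 37 windows, that of Eif2s3x at bases -96 to -89, and in 3.45% of 32851 windows of that length. TGACGTCA, the full cAMP response element, was in none of the 37 and in 1.55% of all. TGACG, which also lies inside TGACGTCA, was in 19 of the 37 and in 17.8% of all. Eif3c held it at bases -57 to -53, as the capitals show, and Eif1 at -113 to -109 and again at -8 to -4, beyond the printed stretch. Neither Eif2s2 nor Eif5 held it. CACGTG, the E-box, was in 9 of the 37 and in 6.02% of all, and in none of the 4 printed genes. A match is a description of these letters only. Whether the members hold more of them than comparable promoters was not tested.

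Among the genes of start codon selection, Eif1a (ENSMUSG00000057561.10; GRCm38 chromosome 18 from 46597701 to 46616456, plus strand) had 183, 202 and 140.4 CPM in vehicle and 195, 209 and 184 CPM under the drug at 2 h. At 6 h it had 94.9, 123 and 99.5 in vehicle and 287, 190.0 and 196 under the drug. At 12 h the values were 157 and 156 in vehicle and 356 and 299 under the drug, and recovery had 56.6, 109 and 93.9. Every drug library was above every vehicle library at 6 and at 12 h, and the groups overlapped at 2 h. Replicate 1 of the drug at 6 h, at 287 CPM, stood apart from the other libraries of its group. The log2 difference was 1.09 ± 0.24 (SE; 2.12-fold, adjusted p = 0.0036) at 6 h and 1.06 ± 0.29 (adjusted p = 0.023) at 12 h, by edgeR. The call at 6 h held in all 26 other settings, but that at 12 h was lost without any 1 of the 4 libraries at 12 h (adjusted p 0.071 to 0.18), with total-count scaling (0.22) and with genes of low count kept (0.079). Its exons share 4.05% of their 50-base words with other genes.

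Eif1ax, the X-linked gene of eIF1A, was not called: its log2 difference at 6 h was -0.42 ± 0.20 (adjusted p = 0.15) and at 12 h -0.49 ± 0.24 (adjusted p = 0.23). The difference between Eif1a and Eif1ax was not tested, but their 95% intervals at 6 h, 0.58 to 1.59 and -0.84 to -0.01, do not meet. Levels per kb of exon use all annotated exons joined, which can exceed the longest transcript, so they compare genes only roughly. On this scale Eif1a was at 25.4 CPM and Eif1ax at 39.7 CPM in vehicle at 6 h, and at 53.9 and 29.6 CPM under the drug. In vehicle at 2 h Eif1a was at 42.1 and Eif1ax at 27.98 CPM per kb, and at 12 h at 37.6 and 28.3 CPM. The order in vehicle at 6 h was thus the reverse of that in the other vehicle groups.

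Eif1 (ENSMUSG00000035530.13; chromosome 11 from 100319885 to 100322096, plus strand) encodes eIF1, which guards the accuracy of start codon choice. It had 475, 482 and 155 CPM in vehicle and 452, 461 and 491 under the drug at 2 h. After 6 h the values were 815, 708 and 1257 in vehicle and 1082, 2099 and 1837 under the drug. At 12 h it had 318 and 323 in vehicle and 582 and 558 under the drug, and in recovery 812, 517 and 740.1. The groups overlapped at 6 h, where replicate 1 of the drug was lowest, and did not at 12 h. Neither difference passed the test: 0.85 ± 0.36 (adjusted p = 0.11) at 6 h and 0.83 ± 0.44 (adjusted p = 0.28) at 12 h. Its paralog Eif1b had 18.00, 16.1 and 10.4 CPM in vehicle and 12.4, 13.3 and 11.5 under the drug at 2 h. At 6 h Eif1b had 44.01, 31.8 and 53.9 and 25.7, 47.7 and 44.7, at 12 h 18.7 and 18.7 and 13.5 and 14.9, and in recovery 32.5, 26.7 and 37.97. Eif1b was 1 of the genes whose groups overlapped at 6 h, with a difference of -0.13 ± 0.26 (adjusted p = 0.78). Per kb of exon Eif1 was at 442 CPM and Eif1b at 38.4 CPM in vehicle at 6 h. The fifth gene, Eif1ad, which encodes a protein with an eIF1A-like domain, differed by 0.32 ± 0.46 (adjusted p = 0.69).

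Of the 3 subunits of eIF2 1 rose. Eif2s2 (ENSMUSG00000074656.12; chromosome 2 from 154871410 to 154892935, minus strand) had 243, 280.1 and 387 CPM in vehicle and 287, 306 and 284 under the drug at 2 h. Its 6 h values were 326, 347 and 299 in vehicle and 659.8, 619 and 644 under the drug. At 12 h the values were 255 and 259 and 463 and 403, and in recovery 231, 326 and 361. The groups overlapped at 2 h and stood apart at 6 and 12 h. The log2 difference at 6 h was 0.99 ± 0.20 (1.98-fold, adjusted p = 0.002), a call that held in all 26 other settings, and at 12 h it was 0.75 ± 0.24 and just missed the threshold (adjusted p = 0.052). Eif2s1, the alpha subunit that PERK phosphorylates, had a difference of 0.07 ± 0.25 at 6 h with an interval from -0.47 to 0.60.

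Eif2s3x, the gamma subunit that binds GTP and the initiator tRNA, had 237, 269 and 211 CPM in vehicle and 208, 213 and 199 under the drug at 2 h. At 6 h there were 70.1, 95.02 and 84.5 and 124, 63.9 and 61.5, at 12 h 217 and 224 and 204 and 192, and in recovery 112, 116 and 63.99. Drug and vehicle overlapped at 6 h, where the interval ran from -0.56 to 0.56. The intervals of Eif2s2 and Eif2s1 at 6 h, 0.56 to 1.41 and -0.47 to 0.60, overlap. Per kb of exon the 3 subunits were at 47.9 (Eif2s2), 36.4 (Eif2s1) and 21.8 CPM (Eif2s3x) in vehicle at 6 h, and at 94.9, 38.1 and 21.8 CPM under the drug. In vehicle at 2 h the same 3 were at 44.9, 34.2 and 62.7 CPM, and at 12 h at 38.01, 38.1 and 57.8 CPM. Their order thus differed between vehicle groups. Eif2s3x shares 36.2% of its 50-base words with a copy, Gm2223, so its reads are uncertain.

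**Figure D2:**
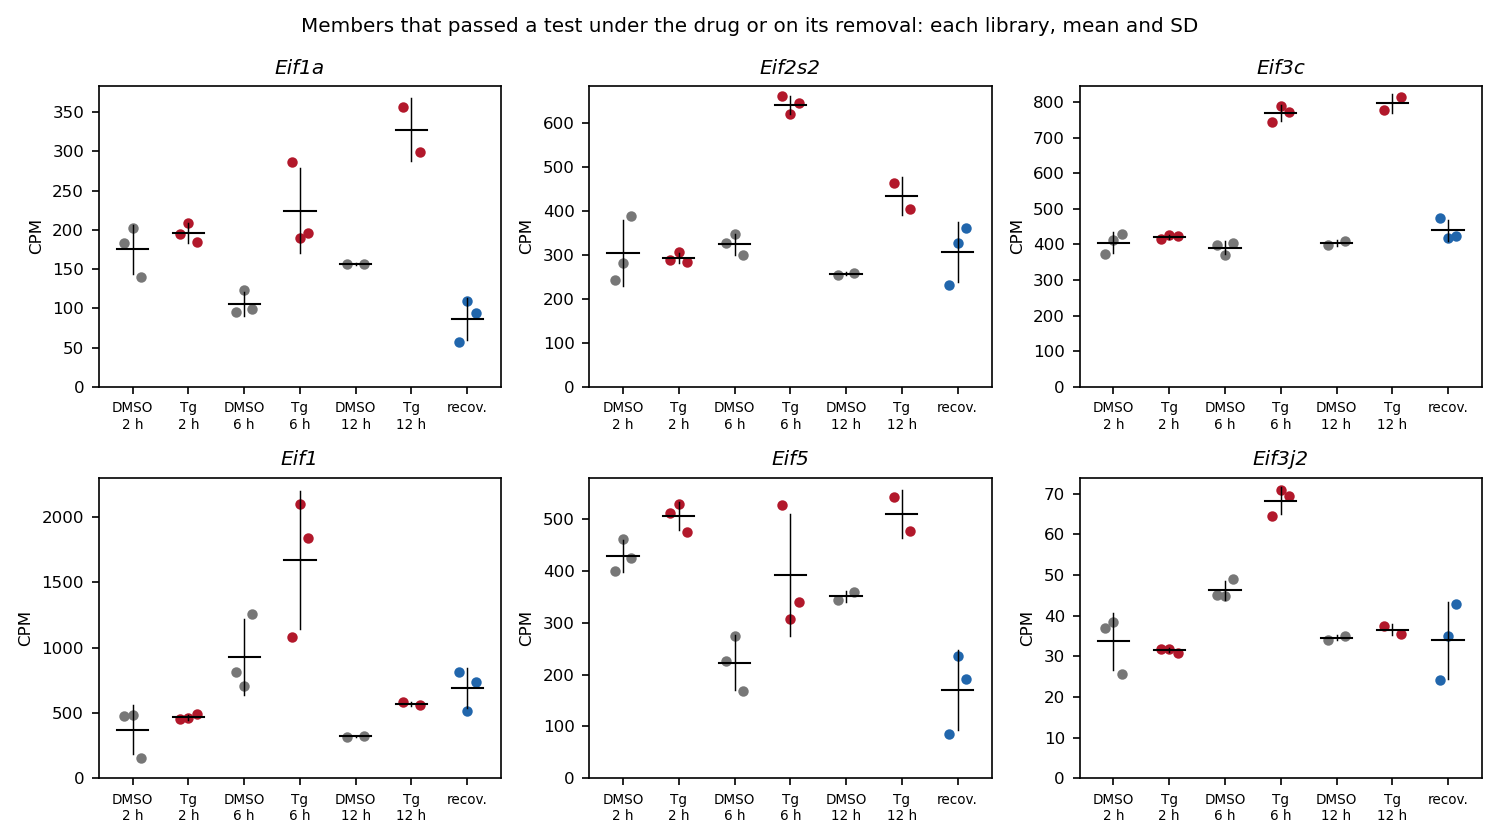
Levels (CPM, vertical axes starting at 0) of the 6 genes that passed a test under the drug or on its removal, with 1 point per library, the mean as a horizontal line and the SD as a vertical one. Eif2s2 and Eif3c libraries of the drug at 6 h all lie above those of every other group at 2 and 6 h and of recovery. In Eif1, Eif1a and Eif5 replicate 1 of the drug at 6 h lies apart from its 2 neighbours.

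None of the 5 genes of eIF2B, the exchange factor that reloads eIF2 with GTP, passed the test at 2, 6 or 12 h. Eif2b3, of the gamma subunit, had the lowest p among them at 6 h. It had 30.5, 30.1 and 22.00 CPM in vehicle and 25.4, 28.3 and 27.3 under the drug at 2 h, and 57.7, 55.2 and 93.8 and 76.6, 139.6 and 112 at 6 h. At 12 h it had 23.8 and 24.6 and 50.8 and 50.1, and in recovery 143, 43.5 and 53.1. Drug and vehicle overlapped at 6 h and not at 12 h, and the differences were 0.67 ± 0.36 (adjusted p = 0.22) and 1.06 ± 0.45 (adjusted p = 0.15). The other 4 subunits, among them the catalytic epsilon subunit Eif2b5, lay between -0.17 and 0.13 at 6 h.

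Eif2a and Eif2d encode factors that can deliver tRNA to the small subunit without eIF2, and neither passed the test. Eif2d had 34.6, 33.2 and 19.99 CPM in vehicle and 30.4, 30.1 and 29.3 under the drug at 2 h, and 49.97, 44.1 and 53.7 and 44.3, 62.5 and 60.5 at 6 h. At 12 h it had 37.5 and 38.6 and 38.02 and 42.6, and in recovery 77.97, 44.4 and 52.6. The groups overlapped at 6 h, with a difference of 0.18 ± 0.23 for Eif2d and 0.20 ± 0.29 for Eif2a.

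Of the 14 genes of eIF3, the large scaffold on the small subunit, Eif3c (ENSMUSG00000030738.11; chromosome 7 from 126546455 to 126566411, minus strand) was the 1 that rose. It had 373, 413 and 430.2 CPM in vehicle and 416, 426 and 423 under the drug at 2 h. At 6 h it had 399, 371 and 403 in vehicle and 745, 789 and 773 under the drug, and at 12 h 399 and 411 and 778 and 815. In recovery it had 474, 419 and 425. Its libraries lay close together within each group, and those of the drug at 6 and 12 h stood above all the others. The log2 difference was 0.98 ± 0.14 at 6 h (1.97-fold, adjusted p = 1.6e-04) and 0.98 ± 0.18 at 12 h (adjusted p = 0.0013). The call at 6 h held in all 26 other settings, and that at 12 h was lost when genes of low count were kept (adjusted p = 0.089).

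The other subunits of the eIF3 core had differences at 6 h of 0.83 ± 0.48 for Eif3a (adjusted p = 0.25), 0.01 ± 0.33 for Eif3b and 0.05 ± 0.20 for Eif3e. The 95% interval of Eif3c, 0.67 to 1.28, lay above those of Eif3e (-0.37 to 0.48), Eif3h (-0.50 to 0.20), Eif3l (-0.64 to 0.06) and Eif3m (-0.32 to 0.54), and differences between subunits were not tested. For Eif3a, Eif3d, Eif3f, Eif3g, Eif3j1 and Eif3k the intervals reached past a 2-fold change. Per kb of exon Eif3b and Eif3h had the highest levels of the complex in vehicle at 6 h, 280.4 and 281 CPM, and Eif3c was at 111 CPM. Under the drug at 6 h Eif3c was at 219 CPM per kb, behind Eif3b at 283 and Eif3h at 254. Eif3h shares 26.2% of its 50-base words with other genes and Eif3c 7.65%, so their reads are partly uncertain. Eif3j2, 1 of a pair of genes for the loosely bound j subunit, had 45.02, 44.8 and 49.03 CPM in vehicle and 64.6, 70.9 and 69.5 under the drug at 6 h. These groups stood apart, but the difference of 0.56 ± 0.20 missed the threshold (adjusted p = 0.053). Its partner Eif3j1 had 30.3, 45.2 and 16.8 and 72.96, 23.9 and 31.01 CPM, which overlapped. Eif3j2 shares 90.8% of its 50-base words with Eif3j1, so how their reads were divided is uncertain.

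No gene of the cap-binding eIF4E group passed the test. Eif4e, of the main cap-binding protein, had 194, 212 and 352 CPM in vehicle and 155, 167 and 158 under the drug at 2 h. After 6 h the values were 183, 215 and 143 and 181, 128 and 139, at 12 h 186 and 195 and 161 and 156, and in recovery 83.1, 181 and 171. All drug libraries were below all vehicle libraries at 2 h and at 12 h, with differences of -0.66 ± 0.28 (adjusted p = 0.23) and -0.26 ± 0.34 (adjusted p = 0.75). Eif4e2, which encodes a cap-binding repressor (4EHP), had 104, 111 and 85.3 CPM in vehicle and 71.4, 77.8 and 70.8 under the drug at 2 h. At 6 h Eif4e2 had 160.2, 136 and 225 and 100.5, 171 and 147, at 12 h 87.2 and 85.97 and 109.8 and 113, and in recovery 236, 109 and 140.4. Its drug libraries were below vehicle at 2 h and above it at 12 h, with neither difference past the test (-0.45 ± 0.27 and 0.36 ± 0.33). Eif4e3, another cap-binding form, was low throughout, with 10.2, 10.03 and 9.80 CPM in vehicle and 9.20, 8.40 and 9.95 under the drug at 2 h. At 6 h Eif4e3 had 9.22, 12.7 and 4.67 and 12.2, 7.92 and 7.54, at 12 h 9.32 and 8.07 and 8.87 and 6.93, and in recovery 5.64, 9.87 and 9.81. Per kb of exon the order in vehicle at 6 h was Eif4e (30.0 CPM), Eif4e2 (23.2 CPM) and Eif4e3 (3.52 CPM), and the libraries of Eif4e and Eif4e2 overlapped on that scale. The joined exons of Eif4e and Eif4e2 measure 6008 and 7497 bases and their longest transcripts 4991 and 3473. The order of these genes thus depends on the length used. Eif4enif1, of the shuttle that carries eIF4E into the nucleus, differed by 0.12 ± 0.28 at 6 h.

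The helicase genes also stayed short of the threshold, with the abundant Eif4a1 closest to it. Eif4a1 had 1095, 1159.9 and 944 CPM in vehicle and 772, 822 and 782 under the drug at 2 h. Its 6 h values were 1796, 1742 and 2011 and 1125, 1469.9 and 1398, at 12 h 1111 and 1168 and 999 and 1008, and in recovery 1679, 1231 and 1576. The drug libraries were below vehicle at all 3 times without overlap, by -0.43 ± 0.18 (adjusted p = 0.22), -0.47 ± 0.18 (adjusted p = 0.073) and -0.18 ± 0.22 (adjusted p = 0.73). DESeq2, and edgeR with length and GC offsets, called it lower at 6 h. So did edgeR without replicate 3 of vehicle at 2 h, without replicate 1 of recovery, and without both. Its paralog Eif4a2 had 295, 313 and 151 CPM in vehicle and 397, 415 and 382 under the drug at 2 h. At 6 h Eif4a2 had 164, 217 and 76.9 and 309, 121 and 156, at 12 h 258 and 268 and 352 and 312, and in recovery 36.6, 215 and 168. Drug was above vehicle in every library at 2 h and at 12 h, while at 6 h replicate 1 of the drug was high and the groups overlapped. None of these differences passed (0.65 ± 0.51, 0.35 ± 0.51 and 0.34 ± 0.62). Eif4a1 shares 33.3% of its 50-base words with other genes, mostly the pseudogene Eif4a-ps4. The cofactors Eif4b and Eif4h, which stimulate the helicase, differed by 0.15 ± 0.17 and -0.29 ± 0.28 at 6 h, and Eif4a3, the helicase of the exon junction complex, by -0.21 ± 0.30.

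The 3 scaffold genes of eIF4G did not pass the test at any time of exposure. Eif4g1, of the main scaffold, had 759, 785 and 853 CPM in vehicle and 664, 683 and 665 under the drug at 2 h. At 6 h there were 520.3, 572 and 461 and 514, 396 and 392, at 12 h 795 and 828 and 631 and 654, and in recovery 351, 596 and 465. Its drug libraries were below vehicle at 2 h and 12 h and overlapped it at 6 h. Eif4g2, of a scaffold without the eIF4E site (DAP5), had 1438, 1499 and 1515 CPM in vehicle and 1177, 1218 and 1163 under the drug at 2 h. At 6 h Eif4g2 had 604, 789 and 402 and 1033, 464 and 544, at 12 h 1120.3 and 1176 and 1368 and 1226, and in recovery 208, 779 and 571. It was below vehicle at 2 h and above it at 12 h in every library. Eif4g3, of a second full-length scaffold, had 118, 129.9 and 205 CPM in vehicle and 131, 135 and 119.8 under the drug at 2 h. At 6 h Eif4g3 had 95.3, 92.2 and 126 and 139, 144 and 131, at 12 h 119 and 124 and 127 and 126, and in recovery 135, 111 and 90.4. Drug stood above vehicle at 6 h without overlap, by 0.40 ± 0.21 (adjusted p = 0.21). Eif4g1 differed by -0.25 ± 0.19 and Eif4g2 by 0.19 ± 0.38 at that time.

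**Figure D3:**
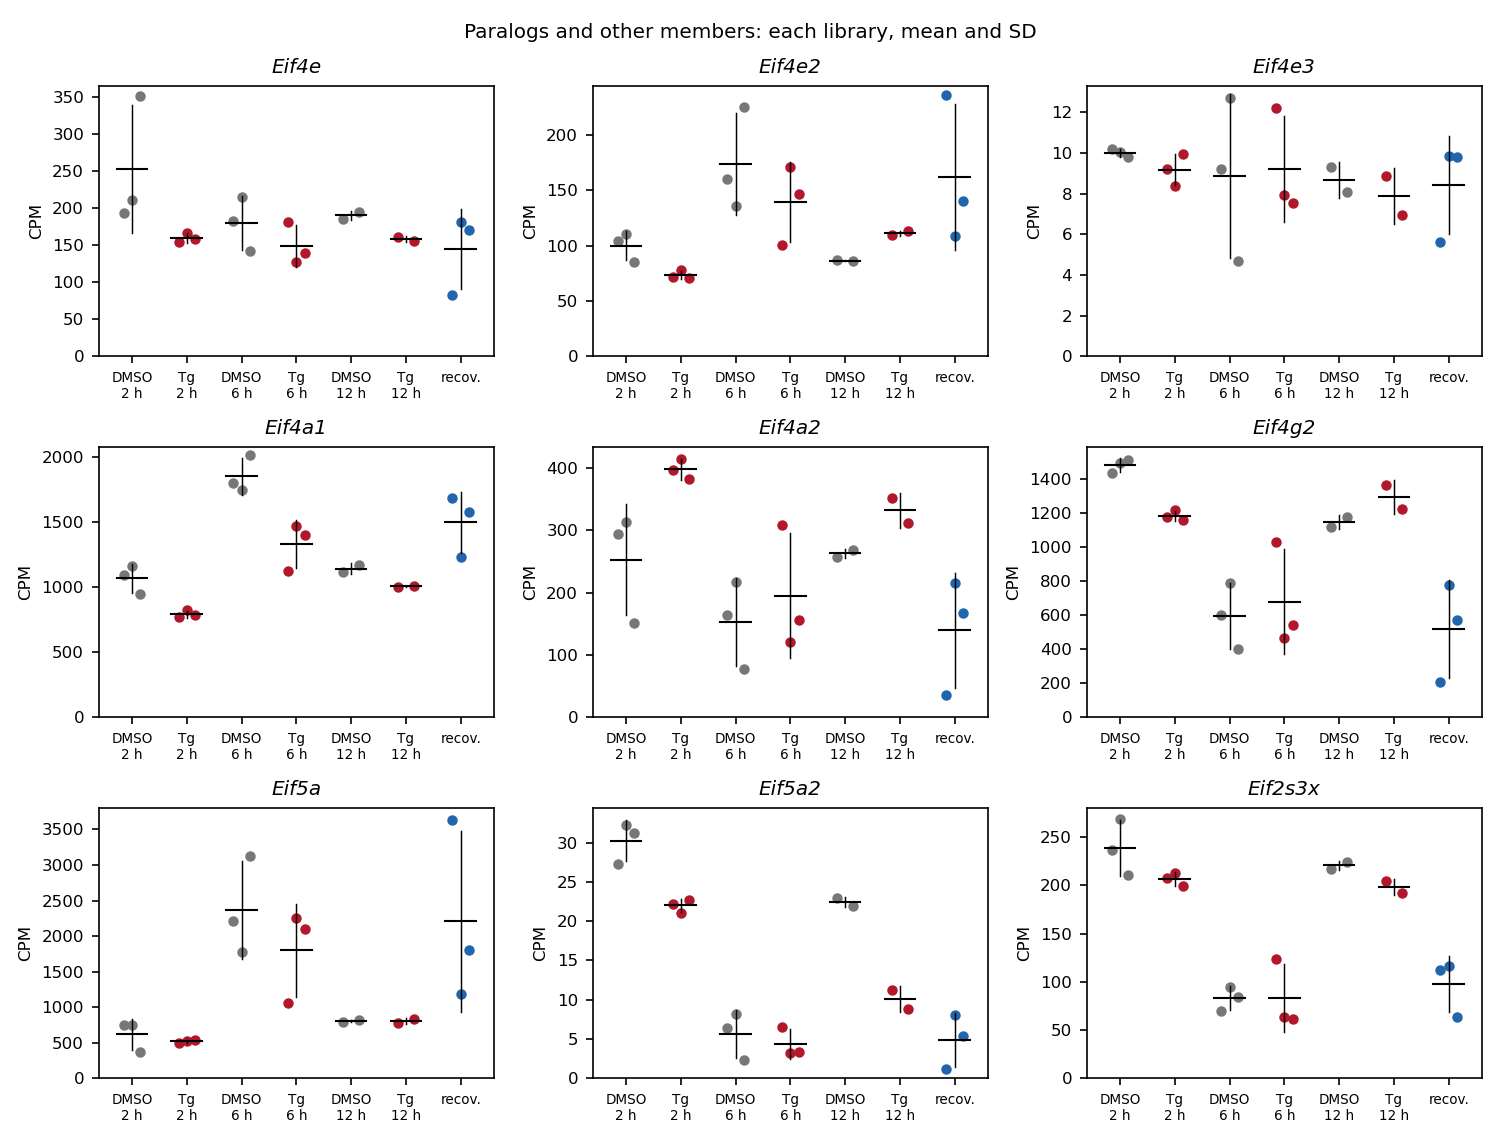
Levels (CPM, vertical axes starting at 0) of paralogs of the cap-binding, helicase, scaffold and eIF5A genes and of Eif2s3x, with 1 point per library, the mean as a horizontal line and the SD as a vertical one. Eif5a and Eif5a2 move in opposite directions between vehicle at 2, 6 and 12 h, and replicate 1 of the drug at 6 h lies apart in Eif4a2, Eif4g2 and Eif2s3x.

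For subunit joining, Eif5 (ENSMUSG00000021282.17; chromosome 12 from 111538016 to 111546752, plus strand), of the GTPase-activating partner of eIF2, had 399.6, 462 and 425 CPM in vehicle and 511, 529 and 476 under the drug at 2 h. At 6 h it had 226, 275 and 169 and 527, 308 and 341, at 12 h 344 and 359 and 543 and 477, and in recovery 85.4, 236 and 191. Drug was above vehicle in every library at 2, 6 and 12 h. The difference missed the threshold at 6 h (0.81 ± 0.30, adjusted p = 0.067) and at 12 h (0.54 ± 0.37, adjusted p = 0.44). Eif5b, the factor that joins the subunits, and Eif6, which keeps them apart, differed by 0.08 ± 0.47 and 0.27 ± 0.43 at 6 h.

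Eif5a encodes a factor named for initiation that helps elongation past difficult sequences. It had 744, 748 and 368 CPM in vehicle and 501, 521 and 537 under the drug at 2 h. After 6 h the values were 2215, 1776 and 3122 and 1054, 2249 and 2094, at 12 h 796 and 816 and 779 and 839, and in recovery 3638, 1190.5 and 1808. Drug and vehicle overlapped at all 3 times. Its paralog Eif5a2 had 27.3, 32.2 and 31.2 CPM in vehicle and 22.2, 21.1 and 22.7 under the drug at 2 h. At 6 h Eif5a2 had 6.38, 8.19 and 2.29 and 6.58, 3.19 and 3.40, at 12 h 22.9 and 21.95 and 11.3 and 8.88, and in recovery 1.13, 8.01 and 5.43. Eif5a2 was below vehicle in every library at 2 h and at 12 h, and the difference at 12 h, -1.16 ± 0.61, did not pass (adjusted p = 0.27). Per kb of exon, Eif5a was at 997 CPM and Eif5a2 at 1.12 CPM in vehicle at 6 h, the highest and the lowest of the 46 genes in that group. In vehicle at 2 h they were at 261 and 6.02 CPM per kb, and at 12 h at 339 and 4.47 CPM. Eif5a2 was not the lowest at those times, when Eif4e3 was at 3.97 and 3.46 CPM per kb.

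**Figure D4:**
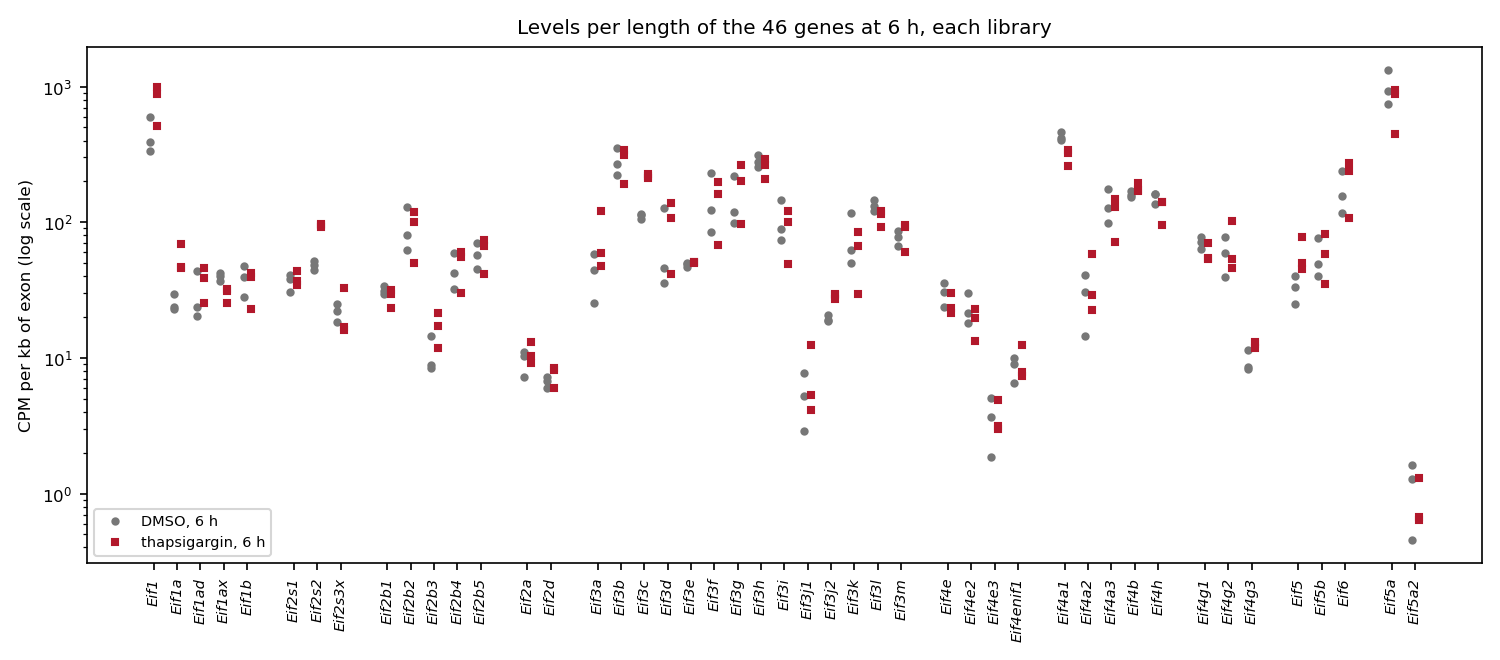
Levels per kb of exon (CPM, log axis) of the 46 genes at 6 h, with 1 point per library of vehicle (grey circles) and thapsigargin (red squares), ordered by complex. The genes span from 1.12 CPM (Eif5a2) to 997 CPM (Eif5a) per kb in the vehicle mean, and the drug libraries of Eif1a, Eif2s2 and Eif3c lie above those of vehicle.

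At 2 h none of the 46 genes was called in either direction by edgeR, where 3.01% of all genes were called higher and 1.51% lower. At an unadjusted p under 0.05 none was higher and 4 were lower (Eif3h, Eif3l, Eif4a1 and Eif4e), against 9.37% and 7.55% of all genes. DESeq2 called none of the members, and 5.63% and 3.73% of all genes. Without replicate 1 of recovery 1 member was called lower, Eif3l, without both libraries of high mitochondrial share 1 was, Eif1ax, and with length and GC offsets 3 were (Eif3h, Eif3l and Eif4e). The median log2 difference was -0.21, against -0.04 over all genes, and 9 of the 46 were above 0 (46.5% of all genes). With total-count scaling the medians became 0.01 and 0.17, so the sign of the members' median turned with the scaling while it remained below that of all genes. Vehicle and drug did not overlap for 3 genes above and 14 below vehicle, where 19.3% and 19.2% of all genes were so placed. The members with the lowest p were Eif3l (-0.47 ± 0.16, adjusted p = 0.13), of a peripheral eIF3 subunit, and Eif4a1.

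The test of the difference between the responses at 6 h and at 2 h called 2 members, Eif2s2 (1.04 ± 0.28, adjusted p = 0.049) and Eif3c (0.92 ± 0.20, adjusted p = 0.016), both with the larger response at 6 h. Of all genes 2.12% were called in that direction, and 1.87% in the other, where no member was called by edgeR, at an unadjusted p under 0.05 (6.76% of all genes) or by DESeq2 (3.6%). In the first direction 5 members had an unadjusted p under 0.05 (8.89%) and DESeq2 called 4 (5.08%). Eif1a differed by 0.93 ± 0.33 and was not called (adjusted p = 0.16). Neither call held in all settings. That of Eif2s2 was lost in 15 of 19 fits without 1 library (adjusted p 0.07 to 0.12), and that of Eif3c without any 1 of the libraries of the drug at 2 h or replicate 2 of vehicle at 6 h (adjusted p 0.052 to 0.059). Total-count scaling ended both (adjusted p = 0.46 for Eif2s2 and 0.27 for Eif3c), as did keeping genes of low count (0.29 and 0.38). That of Eif2s2 was also lost with length and GC offsets (0.058) and with the replicate number as a block (0.084). Between 12 h and 6 h no member was called in either direction by edgeR, where 0.0388% of all genes were called higher and 0.532% lower. None was called by DESeq2 (0.527% and 1.83%) or had an unadjusted p under 0.05 (2.14% and 5.82%). For Eif3c that interval ran from -0.48 to 0.48 and for Eif1a from -0.82 to 0.77.

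At 12 h, with 2 libraries a group, Eif1a and Eif3c were the members called higher and none was called lower by edgeR, against 6.29% and 6.77% of all genes. At an unadjusted p under 0.05, 4 were higher and none lower (12.3% and 12% of all genes), and DESeq2 called 3 higher and none lower, with Eif2s2 added (8.48% and 8.37%). The count was 1 without any 1 of the 4 libraries at 12 h, 4 without replicate 1 of recovery or with length and GC offsets, and 0 when genes of low count were kept. The median was 0.13, against 0.01 over all genes. Drug and vehicle did not overlap for 25 members above and 10 below vehicle, where 37.3% and 35.8% of all genes were so placed.

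In recovery 6 of the 46 genes fell and none rose relative to the drug at 6 h, by edgeR, where 13.9% of all genes were called lower and 11.6% higher. At an unadjusted p under 0.05, 8 were lower and none higher (19.2% and 17.7% of all genes), and DESeq2 called 9 lower and none higher (16.5% and 14.3%). The 6 were Eif1a, Eif1, Eif5, Eif2s2, Eif3j2 and Eif3c. They make up 13.0% of the members, near the share of all genes called lower. This comparison and that of drug against vehicle share the libraries of the drug at 6 h, so their values are given side by side and not as separate evidence. The largest difference was that of Eif1a, -1.37 ± 0.24 (adjusted p = 5.7e-04), beside 1.09 ± 0.24 under the drug. Eif2s2 fell by 1.07 ± 0.20 on the log2 scale (adjusted p = 9.8e-04) and Eif3c by 0.81 ± 0.14 (adjusted p = 6.8e-04). Their recovery libraries, given above, were all below those of the drug at 6 h.

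Eif1 fell by 1.28 ± 0.36 (adjusted p = 0.016), beside a difference of 0.85 ± 0.36 under the drug that had missed the threshold. Eif1 shares 31.6% of its 50-base words with other genes, so its reads are uncertain. Its call was lost without replicate 2 or 3 of the drug at 6 h or replicate 2 of recovery (adjusted p 0.051 to 0.064). Eif5 fell by 1.20 ± 0.30 (adjusted p = 0.0083), and lost its call with total-count scaling (adjusted p = 0.063). Eif3j2 had 24.1, 34.9 and 42.9 CPM in recovery, all below the drug at 6 h, and fell with an interval of the log2 difference from -1.43 to -0.58 (adjusted p = 0.0015). At 2 h it had 36.9, 38.5 and 25.7 CPM in vehicle and 31.8, 31.7 and 30.9 under the drug, and at 12 h 34.1 and 35.01 and 37.5 and 35.6. Drug libraries were above vehicle at 12 h, by 0.08 ± 0.24 (adjusted p = 0.91), and overlapped it at 2 h. The recovery libraries did not overlap those of the drug at 6 h for 8 members below and none above, where 19% and 12% of all genes were so placed. Without replicate 1 of recovery, the library with many mitochondrial reads, 10 members were called lower, and without it and replicate 3 of vehicle at 2 h 12 were.

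Against vehicle at 6 h, recovery had no member called in either direction by edgeR, where 0.205% of all genes were called higher and 0.122% lower. At an unadjusted p under 0.05 none was higher and 2 were lower (6.11% and 3.68% of all genes), Eif2b1 (-0.59 ± 0.19) and Eif3j2 (-0.44 ± 0.20). DESeq2 called 1 lower, Eif2b1, and none higher (0.915% and 1.42%). The median was -0.11, against 0.06 over all genes. For the 3 genes that had risen under the drug, the intervals ran from -0.79 to 0.22 (Eif1a), -0.50 to 0.34 (Eif2s2) and -0.14 to 0.47 (Eif3c). For 31 of the 46 (67.4%) the interval lay within a 2-fold change in both directions, as for 40.5% of all genes. Recovery and vehicle did not overlap for 1 member above and 3 below, where 4.71% and 5.43% of all genes were so placed.

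The vehicle groups differed from each other in more members than drug and vehicle did. Each time was a separate group of libraries, so time in culture and differences between sets of libraries cannot be told apart. A rise or fall in DMSO means here and below only a called difference between 2 such groups. From 2 to 6 h in DMSO 25 members rose and 9 fell, where 24.6% of all genes were called higher and 25% lower. The median was 0.75, against -0.02 over all genes. The largest rises among those called were of Eif3d (2.25 ± 0.75), of the eIF3 subunit that can bind caps, Eif3k (2.05 ± 0.52), Eif3g (1.98 ± 0.45), a scanning subunit, and Eif6 (1.98 ± 0.45). The largest falls were of Eif5a2 (-2.42 ± 0.51), Eif2s3x (-1.52 ± 0.27), Eif3a (-1.50 ± 0.49) and Eif4g2 (-1.31 ± 0.39). With total-count scaling 23 rose and 4 fell, and with length and GC offsets 28 and 2. Without replicate 3 of vehicle at 6 h 18 rose and 3 fell, and without replicate 3 of vehicle at 2 h 20 and 6. All 5 eIF2B genes rose, and 4 or 5 of them in every one of 26 other settings. Of the 14 eIF3 genes 9 rose and 2 fell, with 7 to 11 and 0 to 2 in the other settings. All 3 eIF4G genes were called lower, but of the 26 other settings Eif4g1 was in 22, Eif4g2 in 24 and Eif4g3 in 6, and none of them was with length and GC offsets.

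From 6 to 12 h in DMSO 3 members rose and 21 fell, where 18.7% of all genes were called higher and 16.8% lower. The 3 were Eif5a2 (1.99 ± 0.54), Eif2s3x (1.41 ± 0.29) and Eif4g1 (0.65 ± 0.22). The largest falls among those called were of Eif3g (-1.89 ± 0.52), Eif6 (-1.86 ± 0.52), Eif3f (-1.81 ± 0.67) and Eif3i (-1.74 ± 0.45), and all 5 eIF2B genes fell. Eif3d had the lowest value of all, -1.96 ± 0.86, and was not called (adjusted p = 0.084). Of the eIF2B genes 3 were called lower with total-count scaling, 1 without replicate 3 of vehicle at 6 h and none without either library of vehicle at 12 h. Both comparisons share vehicle at 6 h. Without replicate 3 of that group 1 member was called higher and 5 lower, and without either library of vehicle at 12 h 1 and 0. Without replicate 1 of recovery 8 were called higher and 25 lower, and with total-count scaling 2 and 12. With length and GC offsets none was called higher and 21 lower. Eif2s2 and Eif3c were not called in either comparison (0.09 ± 0.20 and -0.05 ± 0.14 from 2 to 6 h).

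These differences between vehicle groups went with transcript length. Over the 46 genes, Spearman's rho between the longest annotated transcript and the log2 difference was -0.71 from 2 to 6 h and 0.69 from 6 to 12 h, and over all genes -0.44 and 0.40. Members share their libraries, so this is a description. From 2 to 6 h the 15 genes with transcripts under 2500 bases had a median of 1.49 and the other 31 had 0.09, and from 6 to 12 h the medians were -1.53 and 0.05. With offsets for length and GC content in the fit, rho was -0.17 and 0.17, and the medians were 0.62 and 0.60 from 2 to 6 h. For the drug against vehicle at 6 h rho was 0.14 over the 46 genes and 0.11 over all genes. Eif1a, Eif2s2 and Eif3c, with transcripts of 2865, 4102 and 3383 bases, remained called higher at 6 h with these offsets.

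**Figure D5:**
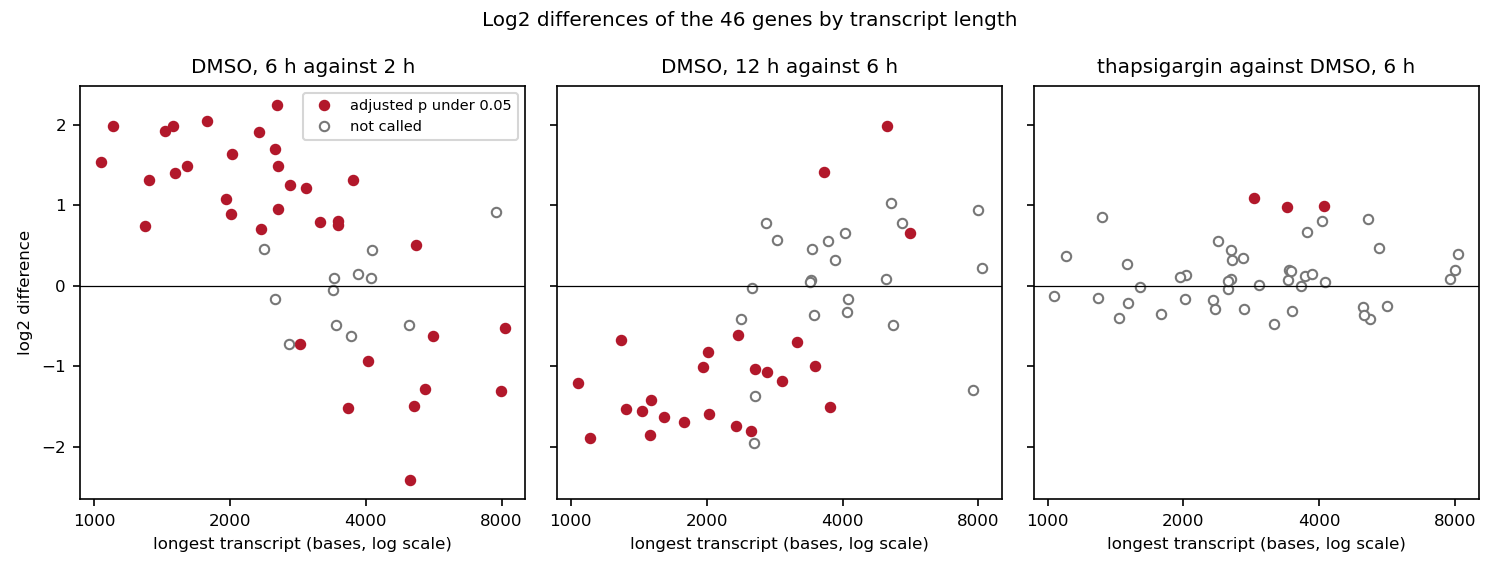
Log2 difference (vertical axes) against the length of the longest transcript in bases (log axis) for the 46 genes, between vehicle groups and for thapsigargin against vehicle at 6 h. Filled points have an adjusted p under 0.05. Short genes lie high from 2 to 6 h and low from 6 to 12 h in vehicle (rho -0.71 and 0.69), and the 3 genes called under the drug are of medium length.

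Other genes of translation were counted beside the members, to be read against the 13% of all genes called higher and 8.79% called lower at 6 h of the drug. Of 9 elongation genes (median 0.12) 2 rose at 6 h of the drug: Eef2k, of the kinase that slows elongation factor 2, from 26.5 ± 2.99 to 44.7 ± 7.10 CPM (SD, n = 3 each; 0.75 ± 0.18 on the log2 scale, adjusted p = 0.0056 by edgeR), and Eef1a2. Eef1a2, the muscle form of elongation factor 1A, was scarce, with 0 to 3 counts in the vehicle libraries and 12 to 18 under the drug at 6 h (adjusted p = 0.046 by edgeR). DESeq2 called 1 of the elongation genes higher at 6 h, 2 of the termination genes, and 2 higher and 2 lower among the partners. Of all genes DESeq2 called 16.4% higher and 10.1% lower at this time. In recovery against the drug at 6 h, with 11.6% of all genes called higher and 13.9% lower, 3 elongation genes were called lower (Eef1e1, Eef1a2 and Eef2k). Of 9 termination and recycling genes (median 0.34) 1 rose, Etf1 (0.64 ± 0.16, adjusted p = 0.0069), of the release factor. Of 16 partners of initiation (median -0.01) 1 rose and 1 fell at 6 h. These encode kinases of eIF4E. Mknk1 rose by 1.83 ± 0.16 (adjusted p = 1.3e-06) and Mknk2 fell by 0.69 ± 0.20 (adjusted p = 0.018). At 12 h both were called in the same directions (1.56 ± 0.20 and -1.39 ± 0.24), and Pdcd4, of an inhibitor of eIF4A, rose by 0.77 ± 0.22. At 2 h edgeR called no gene of these 3 lists. Of the partners 2 were lower at an unadjusted p under 0.05 and by DESeq2, against 7.55% and 3.73% of all genes. In recovery against the drug at 6 h 2 partners rose (Mknk2 and Pdcd4) and 3 fell (Mknk1, Bzw2 and Dhx29), and of the termination genes Etf1 and Mcts2 fell.

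Among 9 genes of eIF2 kinases, eIF2 phosphatase subunits and eIF4E-binding proteins, the same 2 were called by edgeR at 2, 6 and 12 h, where 3.01%, 13% and 6.29% of all genes were called higher and 1.51%, 8.79% and 6.77% lower. DESeq2 called 3 of the 9 higher and 1 lower at 6 h, against 16.4% and 10.1% of all genes. Ppp1r15a, the inducible subunit that directs phosphatase to eIF2, rose by 2.01 ± 0.35, 4.17 ± 0.38 and 4.22 ± 0.47. Eif4ebp2, of a repressor of eIF4E, fell by 1.01 ± 0.15, 1.05 ± 0.15 and 0.81 ± 0.18. Of 82 cytosolic ribosomal protein genes tested none was called by edgeR at 2, 6 or 12 h, with medians of -0.18, -0.35 and 0.31. At an unadjusted p under 0.05 1 of them was lower at 6 h and none at the other times, and DESeq2 called none. From 2 to 6 h in vehicle 81 of the 82 rose (median 2.42), where 24.6% of all genes were called higher. From 6 to 12 h 62 fell (median -1.97), where 16.8% of all genes were called lower. Both comparisons went with transcript length over all genes (rho -0.44 and 0.40), and the part of length in these 82 was not tested. In recovery against the drug at 6 h none of the 82 was called by edgeR. At an unadjusted p under 0.05, 5 were higher (17.7% of all genes), and DESeq2 called 3 higher (14.3%).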

How the data were processed

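RNA selected by poly(T) from 19 samples of C2C12 cells in 7 groups was sequenced. The deposited values are raw read counts per gene. The submitters' processing notes name Trim Galore, STAR 2.5.3a, bedtools 2.31.0, DESeq2 and the mm10 build. For the counter, its strand mode and the gene models used, the entry is: not given in the sources used here. Reads of overlapping, antisense and near-identical genes are therefore uncertain. In each file 5 lines of reads without a gene (13.72 to 28.74% of reads) were left out.

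All libraries entered 1 fit with edgeR 4.0.16 (quasi-likelihood test, 7 groups, TMM scaling, filterByExpr) in R 4.3.3, and p-values were adjusted by Benjamini-Hochberg over 18039 genes in each of 9 comparisons, with a threshold of 0.05. The biological coefficient of variation was 0.352. SE and 95% intervals come from this fit, and CPM use TMM-scaled library sizes. Lengths, GC content and shared 50-base words come from GENCODE M21 (GRCm38), to which 55141 of 55401 identifiers matched without their version. Scripts ran in Python 3.11.15 and were tested on simulated data. DESeq2 1.42.0, other scalings, no filter, offsets, a replicate block and left-out libraries were tried.

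Values in every library are given, for each complex, for the extreme called members at 6 h, or the member of lowest p, and for close paralogs. Eif3j1 and Eif3j2, named at 6 h and in recovery, and the subunits named beside Eif3c were added for context, and the 4 promoters were chosen after the values were seen. The members and lists were chosen with earlier results of these data known.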

Additional observations from a re-analysis of the deposited data

Results flagged for a closer look

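The response to thapsigargin at 6 h minus that at 2 h was tested as a difference in its own right. It came to 1.04 on the log2 scale for Eif2s2 and to 0.92 for Eif3c, each with an adjusted p under the threshold by edgeR. In both genes all 3 drug libraries at 6 h were above all 3 vehicle libraries, while the libraries at 2 h overlapped. Vehicle at 2 h includes replicate 3, with 15.797% mitochondrial reads, in which Eif2s2 was at 387 CPM against 243 and 280.1 CPM in the other 2. Without that library Eif3c was called and Eif2s2 was not (adjusted p = 0.072). The call of Eif2s2 was lost in 15 of 19 fits without 1 library and in 4 of 7 other settings, and that of Eif3c in 4 and in 2. Without replicate 3 of vehicle at 2 h and replicate 1 of recovery together both genes were called, with Eif1a and Eif3j2.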

How the results depend on the processing

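No called result turned its direction in the alternatives run. With DESeq2's size factors in edgeR 5 members were called higher at 6 h. Total-count scaling moved the median of all genes by 0.21 at 2 h, 0.13 at 6 h, -0.17 in recovery against the drug, -0.12 between the responses at 12 and 6 h and 0.29 from 6 to 12 h in vehicle. It called Eif3c and Eif2b3 higher at 12 h, without Eif1a. It called 0 members with a larger response at 6 h than at 2 h, 4 lower from 2 to 6 h and 12 lower from 6 to 12 h in vehicle. DESeq2 called 5 higher and 1 lower at 6 h, 1 lower in recovery against vehicle, 4 with a larger response at 6 h and 6 higher from 6 to 12 h in vehicle. When genes of low count were kept, 0 were higher at 12 h and 0 had a larger response at 6 h. Length and GC offsets moved the median of all genes by -0.23 at 6 h and 0.21 in recovery against the drug, with shifts of up to 0.13 elsewhere. They gave 3 lower at 2 h, 5 lower at 6 h (Eif2b1, Eif3l, Eif4a1, Eif4e and Eif4g1), 4 higher at 12 h, 1 higher in recovery against the drug (Eif3l), 1 with a larger response at 6 h, 2 lower from 2 to 6 h in vehicle and 0 higher from 6 to 12 h. Without both libraries of high mitochondrial share 1 was lower at 2 h, 8 higher and 2 lower at 6 h, 4 higher and 1 lower at 12 h, 12 lower in recovery against the drug, 4 had a larger response at 6 h and 10 rose from 6 to 12 h in vehicle. The cause of these shifts was not tested.

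The labels do not say whether replicate numbers pair the libraries. Of 52 same-numbered pairs 5 had deviations from their group means correlated over 0.1 (range -0.689 to 0.686). With 2 or 3 libraries a group, this check cannot exclude pairing. With the replicate number as a block 3 members were called higher at 6 h, 2 at 12 h, 6 lower in recovery against the drug and 1 with a larger response at 6 h (Eif3c). These numbers are those of the titles. The file names give the thapsigargin libraries at 12 h the numbers 2 and 3 in place of 1 and 2. With those, an alternative chosen after seeing the data, 5 of 51 pairs were over 0.1, and the block gave 3 higher at 6 h, 2 at 12 h, 6 lower in recovery against the drug and 1 with a larger response at 6 h.

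Leaving out each of the 19 libraries in turn gave 0 to 1 lower at 2 h, 3 to 6 higher and 0 to 1 lower at 6 h, 1 to 4 higher at 12 h, 5 to 10 lower in recovery against the drug and 0 to 3 with a larger response at 6 h. In vehicle it gave 18 to 28 higher and 3 to 11 lower from 2 to 6 h, and 1 to 8 higher and 0 to 25 lower from 6 to 12 h. At 6 h, 6 were higher without replicate 1 of recovery and 5 without replicate 3 of vehicle at 2 h. Some tests of single genes were also counted setting by setting. At 6 h of the drug these were of the member of each complex picked by the rule above. At 12 h, in recovery against the drug and between the responses at 6 and 2 h they were of called members. Of these, 469 kept their call or lack of it, 36 lost a call and 15 gained one. Comparisons between vehicle groups, whose calls by setting are given above, were not in this count. With 2 or 3 libraries a group and a depth of 17.31 to 40.96 M reads, the intervals of 18 of the 46 members at 6 h allow a 2-fold change.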
